A study of Arabidopsis thaliana with 6 samples.

Results

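The genes examined here are the 10 loci that lie nearest to *FBP7* (AT1G21760) on Arabidopsis chromosome 1 among those with a named probe set, 5 on each side. They were chosen by position, as the listed loci whose probe sets are annotated to exactly 1 gene, and they are 10 of 13350 genes named in this way on the array. They carry 11 probe sets, since AT1G21830 has a pair of them. Transcript levels were compared between 3 samples of the *fbp7-3* mutant, in the Nossen background, and 3 samples of the No-0 (Nossen) wild type. Both groups were whole seedlings grown in the light for 5 days, and each sample was hybridised to 1 Affymetrix ATH1 array. The labels do not give the kind of lesion in *fbp7-3*, its position in the gene or how the line was made, and the mutant is represented by this single allele. The labels state separate lysis of the samples but nothing on separate cultures, and p-values here measure only the spread between the samples at hand, which may be technical.

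*FBP7* encodes an F-box protein, the kind of subunit that gives an SCF ubiquitin ligase its substrate. Neighbouring genes on a plant chromosome are for the most part transcribed separately, each from its own promoter, and short distances between compact genes mean that transcribed regions of neighbours can overlap. An ATH1 probe set is a group of short oligonucleotides designed on the Columbia genome, mostly near the end of a transcript, and its signal is compared between samples but not with the signal of another probe set.

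On chromosome 1 of the TAIR10.1 assembly, 19 protein-coding genes lie from AT1G21660 to AT1G21830, *FBP7* included. Of these, 9 had no probe set annotated to them alone in the annotation table used. *FBP7* was one of them, so the level of the mutated gene is not reported and the group labels were not checked against it. Counted in protein-coding genes, the members before *FBP7* stand 13, 12, 11, 4 and 3 places away, and those after it 1 to 5 places away. The gene model of AT1G21770 overlaps that of *FBP7* and also that of AT1G21780, and no other pair among the members and *FBP7* overlaps. Overlaps with the other genes of the span were not checked. The sources used here give neither the strand of these models nor the positions of the probes.

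Of the 10 genes, 9 were bright enough to be tested, and 2 changed in the mutant. AT1G21770, the gene that overlaps *FBP7*, fell to 0.459 of its wild type level, and AT1G21670, 12 genes before *FBP7*, rose by 49.9%, both on the scale of log2(signal + 16). The other 7 tested genes did not pass, among them AT1G21680, which lies beside AT1G21670. Over the whole array 180 of 17059 probe sets passed, or 1.06% (limma with a Benjamini-Hochberg adjusted p under 0.05), and by direction 0.522% were higher and 0.533% were lower. Among the members' 10 tested probe sets 1 was higher and 1 was lower.

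The array values that bear on these results are few. Each array had been scaled to a trimmed mean signal of about 500, array medians lay between 188.7 and 200.7, and probe sets below a mean signal of about 36.0 were not tested. An index of RNA quality, the mean log2 ratio of 3′ to 5′ control signals, was 1.07, 1.1 and 1.33 in mutant replicates 1, 2 and 3, against 1, 0.88 and 0.99 in wild type replicates 1, 2 and 3. A higher value means less 5′ signal relative to 3′ signal, which is the direction of poorer, not better, RNA. The groups did not overlap in the index (two-sided exact permutation p = 0.1, the smallest that 3 against 3 allows). Markers of green tissue had high signals: the 3 of 14 listed genes with a named probe set, *RCA*, *LHCB4.1* and *LHCB4.2*, had summed signals of 53446 to 63114 in the mutant, against 50725 to 54708 in the wild type. Summed signals of 5 of 7 root and root hair markers ran from 478.5 to 724.7 in the mutant, against from 597.2 to 1019.7 in the wild type. Those of 2 of 8 seed and embryo markers ran from 164.8 to 294.2 in the mutant, against from 199.6 to 542.1 in the wild type. A sum is weighted to the brightest genes of its list, and single markers differed. Log2 changes ran from 0.03 (*RCA*) to 0.32 (*LHCB4.2*) in green tissue and from −0.75 (AT3G49960) to 0.18 (AT2G39040) in root and root hair. In seed and embryo they were −1.05 (*ICL*) and 0.07 (*EEL*). The groups did not overlap in *LHCB4.1* and AT3G49960. No measured marker was at 0, none passed the limma test, and the part of tissue make-up in the results below was not tested. In such samples fewer cells of a type and less RNA per cell cannot be told apart.

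**Figure D1:**
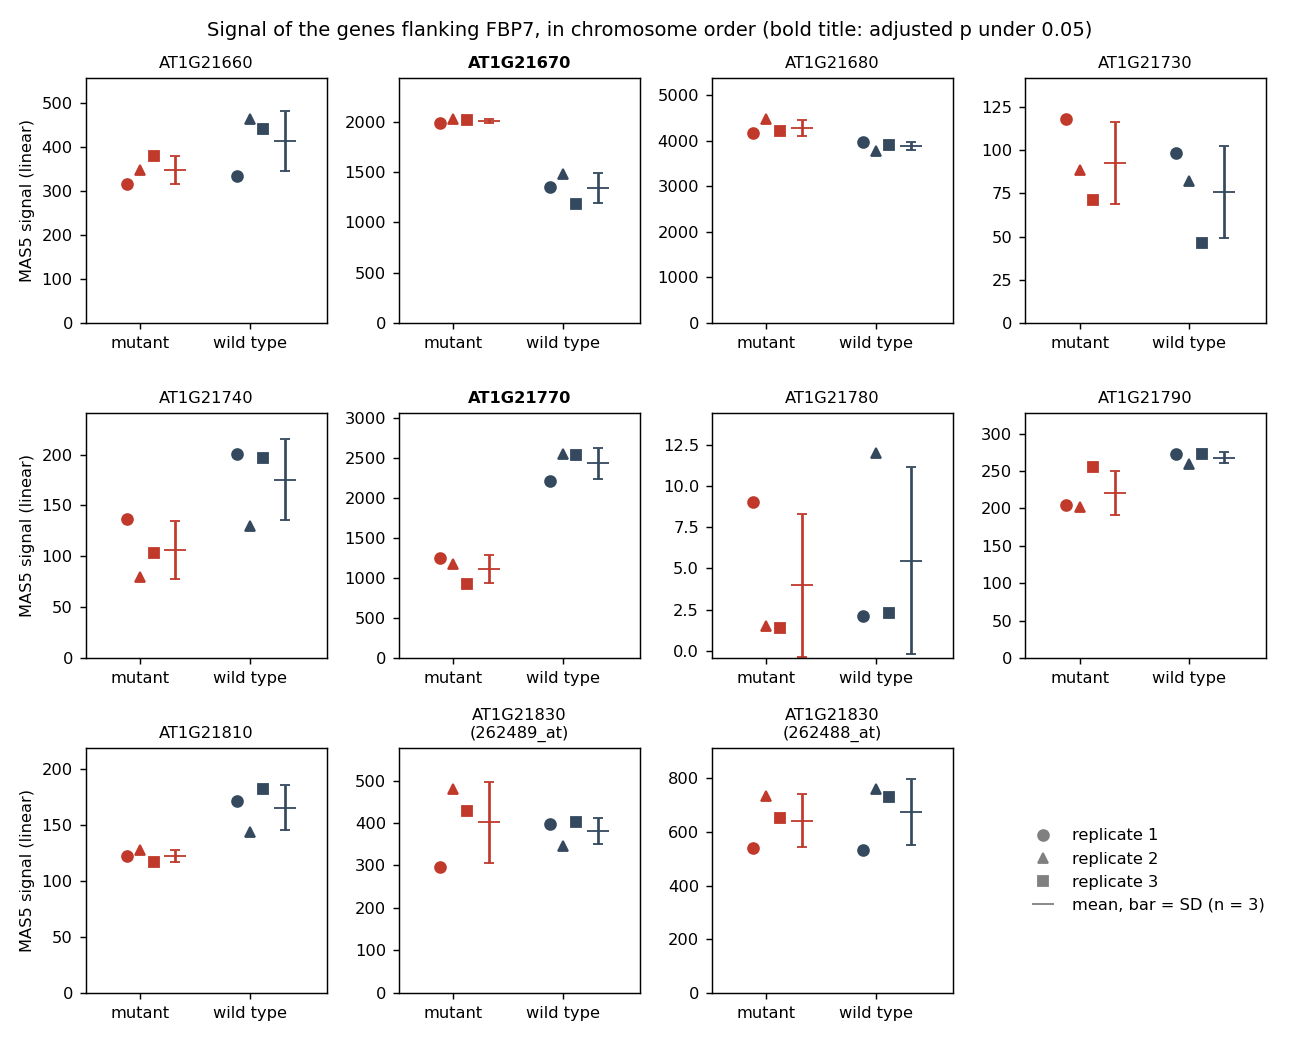
MAS5 signal (linear, arbitrary units) of each probe set of the 10 genes on the 6 arrays, mutant on the left and wild type on the right of each panel, with the mean and SD (n = 3) beside the points. AT1G21770 is lower on all 3 mutant arrays, at 920.9 to 1252.3, and AT1G21670 is higher on them, at 1987.2 to 2023.7; the vertical scale differs between panels.

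AT1G21770 encodes a protein of the acyl-CoA N-acyltransferase superfamily. Its signal was 1252.3, 1169.6 and 920.9 on the mutant arrays, against 2210.3, 2545 and 2536.8 on the wild type arrays. The highest mutant value was well below the lowest wild type value. The means were 1110 ± 172 in the mutant, against 2430 ± 191 in the wild type (SD, n = 3 each), a log2 change of −1.12 ± 0.12 (SE) with a 95% interval of −1.38 to −0.87 (limma adjusted p = 0.000141). By its p it stood 17th of the 17059 probe sets tested. It passed in all 6 fits that left out 1 array, in which its change ran from −1.21 to −0.99.

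The mutant array with the lowest AT1G21770 signal, replicate 3, also had the highest RNA quality index, the direction of poorer RNA. With the index as a covariate the change was −0.81 (limma adjusted p = 0.0854), and without an intensity trend in the variance model it was still −1.12 (limma adjusted p = 0.0659). AT1G21770 did not pass in either of these fits. The groups did not overlap in the index, so genotype and RNA quality cannot be told apart in the fit with the covariate. Because the positions of the probes were not used, signal from AT1G21770 was not separated from that of transcripts of *FBP7* or AT1G21780 that share its sequence.

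AT1G21780, the next gene, encodes a BTB/POZ domain protein, a family in which some members are substrate adaptors of CUL3 ubiquitin ligases. Its probe set gave almost no signal, with 9, 1.5 and 1.4 on the mutant arrays and 2.1, 12 and 2.3 on the wild type arrays. All 6 values were below the 25th percentile of their array, which lay between 39.2 and 49.7, and the groups overlapped. It was left out by the filter, so no change of AT1G21780 can be read from these arrays. Its gene model is the other one that AT1G21770 overlaps.

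The remaining genes after *FBP7* did not pass. AT1G21790, which encodes a protein with a TLC lipid-sensing domain, had signals of 204.9, 202.2 and 254.9 in the mutant, against of 272.1, 259.3 and 272.5 in the wild type. All mutant values were below all wild type values, by a small margin in replicate 3. The log2 change was −0.27 ± 0.15 with an interval of −0.60 to 0.06 (limma adjusted p = 0.529), and was −0.50 with the RNA quality covariate (0.806). AT1G21810, a gene of the filament-like plant protein family, had 122.4, 127.5 and 117.1 in the mutant against 171.3, 143.2 and 181.9 in the wild type. Here too the groups did not overlap, and the mutant values were close together, with a coefficient of variation of 4.25% against 12.1% in the wild type. Its change of −0.39 ± 0.19 had an interval of −0.79 to 0.02 (limma adjusted p = 0.442).

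AT1G21830, the outermost gene after *FBP7*, also carries the older locus name AT1G21820 in the RefSeq annotation. Its probe set 262489_at had 296.1, 479.7 and 429 in the mutant, against 397.6, 345.8 and 401.7 in the wild type, with a change of 0.05 ± 0.17 and an interval of −0.31 to 0.40. Probe set 262488_at had 539, 734.1 and 653.4 in the mutant, against 533.7, 759.2 and 728.2 in the wild type, with a change of −0.06 ± 0.15 and an interval of −0.38 to 0.26. The groups overlapped in both probe sets, whose limma adjusted p values were 0.951 and 0.921. Their signs differed, but each change was smaller than its SE, and each turned sign when single arrays were left out.

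Before *FBP7*, the nearest member is AT1G21740, which encodes a protein with DUF630 and DUF632 domains. It had 136.5, 79.8 and 103.2 on the mutant arrays and 200.4, 129.4 and 196.3 on the wild type arrays. The groups overlapped, since wild type replicate 2 was below mutant replicate 1. The means were 106 ± 28.5 in the mutant, against 175 ± 39.9 in the wild type (SD, n = 3 each), and the log2 change of −0.65 ± 0.23 did not pass (limma adjusted p = 0.271). In size it was larger than that of AT1G21670, which passed, but its SE was over 2 times as large. Its interval, not adjusted for the number of probe sets, was −1.14 to −0.15, and its change ran from −0.83 to −0.48 over 16 alternative fits, none of which called it.

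AT1G21730 encodes a kinesin, a motor protein of microtubules. It had 118, 88.4 and 71.2 in the mutant, against 98.5, 82.4 and 46.4 in the wild type, and the groups overlapped. Its residual SD of 0.39 on the log2 scale was the largest among the members' tested probe sets, and its change of 0.27 ± 0.29 had an interval of −0.35 to 0.88 (limma adjusted p = 0.783). Its change was 0.01 without wild type replicate 3, 0.10 without mutant replicate 1 and 0.66 with the RNA quality covariate, and it passed in none of these fits.

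AT1G21670 and AT1G21680 are adjacent genes that both encode proteins related to the N-terminal domain of DPP6, a dipeptidyl peptidase-like protein first described in animals. AT1G21670 had 1987.2, 2023.7 and 2011.7 on the mutant arrays, against 1353.2, 1484.1 and 1180.8 on the wild type arrays. The mutant values were nearly identical, with a coefficient of variation of 0.927% against 11.4% in the wild type, and all lay above the wild type. The means were 2010 ± 18.6 in the mutant, against 1340 ± 152 in the wild type (SD, n = 3 each), a log2 change of 0.58 ± 0.10 with an interval of 0.37 to 0.80 (limma adjusted p = 0.0121). AT1G21670 lost the call without mutant replicate 2 (limma adjusted p = 0.0639) or mutant replicate 3 (0.0619), without the intensity trend (0.213) and with the RNA quality index as a covariate (0.334). Its change was 0.58 in the first 3 of these fits and 0.65 in the last.

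AT1G21680 had 4166.3, 4474.8 and 4204.6 in the mutant, against 3967.4, 3779.6 and 3905.3 in the wild type. Its values were also higher on every mutant array, by 10.2% on the log2(signal + 16) scale: the change was 0.14 ± 0.09 with an interval of −0.04 to 0.32 (limma adjusted p = 0.571). To test whether the adjacent genes differed in their change, the log2 signals of both were subtracted within each array, which removes the overall scaling of an array apart from the pseudocount. The change of AT1G21670 exceeded that of AT1G21680 by 0.44, and the mutant and wild type arrays did not overlap in this measure (two-sided exact permutation p = 0.1, the smallest that 3 against 3 allows). The comparison was chosen with earlier results of these data known, so it is no separate test of AT1G21670.

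AT1G21660 encodes a protein with a J domain, the part of DnaJ-type co-chaperones that binds Hsp70. It had 315.8, 346.7 and 380.2 in the mutant, against 334.9, 463.2 and 440.5 in the wild type. The groups overlapped, since wild type replicate 1 was below mutant replicates 2 and 3. Its change of −0.23 ± 0.15 had an interval of −0.55 to 0.09 (limma adjusted p = 0.598).

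After the data were seen, the same within-array comparison was made between AT1G21770 and AT1G21790, the nearest tested member after it. The changes of both genes were then known, so it is no separate test of AT1G21770. The change of AT1G21770 was lower than that of AT1G21790 by a log2 difference of −0.85, again with no overlap between mutant and wild type arrays (two-sided exact permutation p = 0.1). The planned comparison with AT1G21780 is not used, because that gene's probe set was near background.

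**Figure D2:**
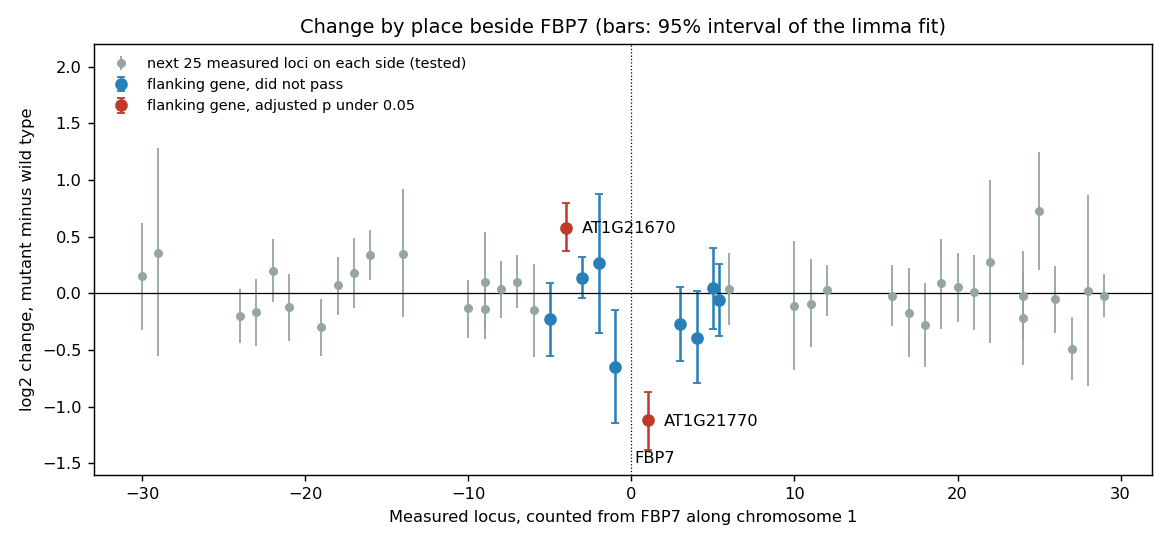
Log2 change (mutant minus wild type, on the log2(signal + 16) scale) with its 95% interval for the tested flanking genes and for the tested genes among the next 25 measured loci on each side, by their place counted from *FBP7*. AT1G21770 (−1.12) and AT1G21670 (0.58) passed the test, and none of the 35 probe sets farther out did.

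Taking the members as a group, their changes had both signs. Of the 10 tested probe sets, 4 had a change above 0 and 6 below 0, with a median of −0.15, beside a median of 0 over all probe sets tested. The 5 before *FBP7* had a median of 0.14 and the 5 after it a median of −0.27. The median size of the change, regardless of sign, was 0.27 in the members and 0.14 over all probe sets tested. The members' spread was like that of the array, with a median residual SD of 0.19 on the log2 scale against 0.18 over all.

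The mutant and wild type values did not overlap in 5 of the members' 10 tested probe sets, which belong to AT1G21670, AT1G21680, AT1G21770, AT1G21790 and AT1G21810. Over all probe sets tested, 17.0% did not overlap, 8.45% higher and 8.56% lower in the mutant. Of the 5, AT1G21670 and AT1G21680 were higher in the mutant and the others were lower.

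The next 25 measured loci on each side of the members gave a background from the same stretch of the chromosome. They had 52 probe sets, of which 35, from 33 genes, were tested. None passed (limma), and 4 of the 35 had an unadjusted p under 0.05, beside 2009 of the 17059 probe sets tested over the whole array. The changes of these 35 ran from −0.49 to 0.73, with 18 above 0 and 17 below, a median of 0.01 and a median size of 0.13. The groups did not overlap in 3 of the 35, beside 17.0% of all probe sets tested. Probe sets of the stretch that were too dim to be tested are not in this range. Their changes, from signals near the floor, ran from −0.79 (AT1G21530) to 1.37 (AT1G21550), and the groups did not overlap in either of these genes.

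The genes with the smallest p in this wider stretch were AT1G21440 and AT1G21500 before *FBP7* and the UDP-glycosyltransferase genes *UGT85A7* and *UGT85A5* after it. AT1G21500 had a change of 0.34 ± 0.10 (limma adjusted p = 0.149) and AT1G21440 one of −0.30 ± 0.12 (0.314). *UGT85A5* (AT1G22370) had 355, 379.6 and 300.7 in the mutant, against 473, 500.1 and 490.2 in the wild type, with a change of −0.49 ± 0.13 (limma adjusted p = 0.104). *UGT85A7* (AT1G22340) had 120.1, 132.6 and 98.4 in the mutant, against 52.6, 65.1 and 74.9 in the wild type, with a change of 0.73 ± 0.24 (limma adjusted p = 0.218). These members of 1 glycosyltransferase family lie 2 coding genes apart and had changes of opposite sign, and neither passed. *UGT85A2*, which lies between them, had a change of −0.05 ± 0.14 (limma adjusted p = 0.926). *UGT85A3*, the next gene after *UGT85A5*, had one of 0.02 ± 0.40 (limma adjusted p = 0.991).

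**Figure D3:**
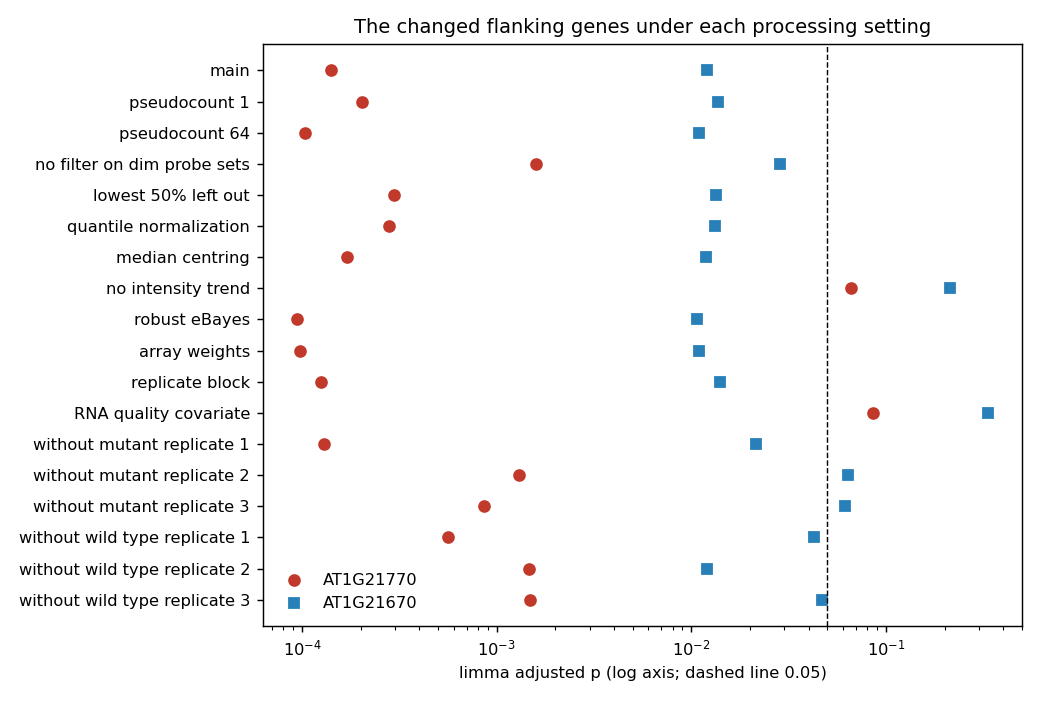
Limma adjusted p (log axis, dashed line at 0.05) of AT1G21770 and AT1G21670 under the main setting and 17 alternatives. AT1G21770 lay below 0.05 in 15 of the 17 and AT1G21670 in 13; both lay above it without the intensity trend and with the RNA quality covariate.

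The tested probe sets with 1 named gene whose values over the 6 arrays were most like those of each changed member lay elsewhere in the genome. Likeness was measured as the root mean square difference between log2 values, each centred on its own mean. For AT1G21770 they were AT5G44400, AT1G73600 and AT5G22460, at 0.188, 0.197 and 0.205. AT1G73600, which encodes a phosphoethanolamine N-methyltransferase, had 1888.8, 1514.9 and 1236.3 in the mutant, against 2604.4, 2456.3 and 2985.9 in the wild type, a change of −0.80 ± 0.13 (limma adjusted p = 0.00786). AT5G44400 and AT5G22460 had changes of −0.81 ± 0.15 and −1.06 ± 0.23 (limma adjusted p = 0.0153 and 0.0427). AT1G73600 passed in all 6 fits without 1 array, AT5G44400 in 3 of the 6 and AT5G22460 in none, the highest limma adjusted p there being 0.0717 for AT5G44400 and 0.182 for AT5G22460. With the RNA quality covariate or without the intensity trend none of the 3 passed. With the covariate the changes were −0.41 for AT5G44400, −0.52 for AT1G73600 and −0.94 for AT5G22460.

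For AT1G21670 the most alike were AT5G35735, AT5G39980 and AT1G48040, at 0.072, 0.074 and 0.079. AT5G35735 had 920.7, 814.3 and 811.8 in the mutant, against 563.2, 633.8 and 521.2 in the wild type, a change of 0.56 ± 0.12 (limma adjusted p = 0.0357). With single arrays left out, this call held in 1 of 6 fits (limma adjusted p up to 0.11), and it held in 9 of all 17 alternatives. AT5G39980 and AT1G48040 had changes of 0.62 ± 0.18 and 0.45 ± 0.24 and did not pass (limma adjusted p = 0.131 and 0.485). Profiles over 6 arrays in 2 groups are alike mainly when the group difference is alike, and these genes were not tested for anything further.

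The probe sets of the 10 genes carry numbers from 262485 to 262505. Of the 21 probe sets in that range, 11 belong to the members, 2 to other named genes, and 8 have no gene listed in the table used, so which genes they measure is not stated here. These 8 were looked at after their values were known, and all were tested. Probe set 262500_at, whose number follows that of AT1G21770 (262499_at), had 84.6, 48.2 and 75.4 in the mutant, against 933.3, 938.3 and 969.1 in the wild type. The mutant values were far below the wild type values on every array, with a log2 change of −3.52 ± 0.17, or 0.0871 of the wild type level. The other 7 did not pass, with changes from −0.17 (262501_at) to 0.35 (262498_at). Probe set 262498_at, the neighbour of AT1G21770 by number on the other side, had 485.8, 510.7 and 500.7 in the mutant, against 464.7, 366.6 and 343.6 in the wild type (limma adjusted p = 0.311).

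**Figure D4:**
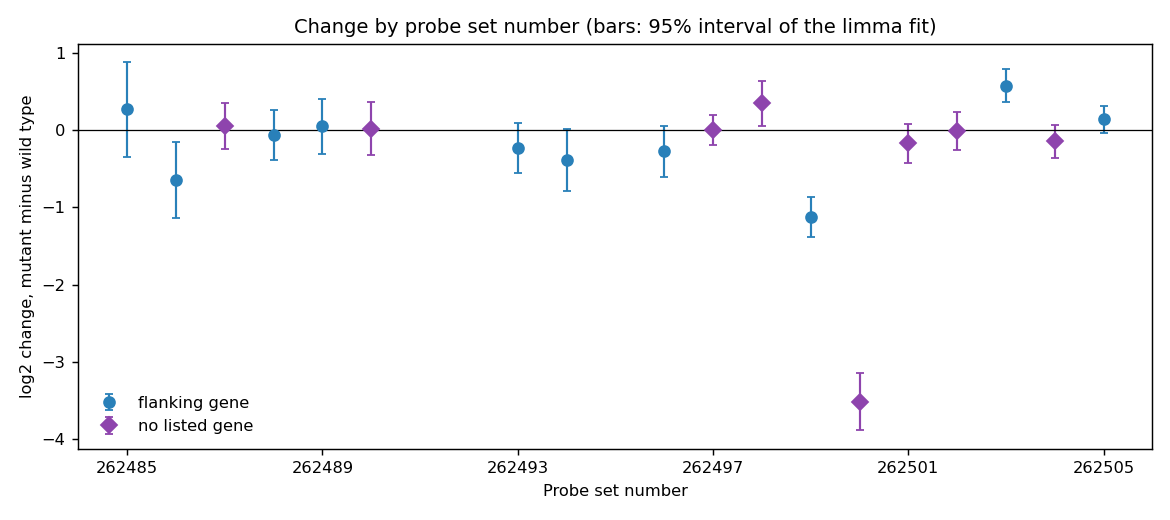
Log2 change (mutant minus wild type) with its 95% interval for the members' tested probe sets and for 8 others, in order of probe set number. These 8, marked as having no listed gene, are not paired with exactly 1 gene in the table used. Probe set 262500_at (−3.52) and its neighbour 262499_at of AT1G21770 (−1.12) are the lowest, followed by 262486_at of AT1G21740 (−0.65), while 262503_at of AT1G21670 (0.58) is the highest; all others shown lie between −0.39 and 0.35.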

How the data were processed

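The values are MAS5 signal intensities deposited by the authors, per the submitters' processing notes, 1 array per sample. No version or setting of MAS5 is given in the sources used here. Per the labels' protocols, about 6 µg of total RNA from about 80 mg of seedlings was labelled for each array. Arrays had been scaled by 1 factor each, since their means without the lowest and highest 2% were alike, and detection calls were not used here. The number of arrays limits the precision.

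Probe sets were named from the platform's annotation and matched by gene ID to RefSeq (TAIR10.1), where 13436 of 13513 with 1 gene were found. Coordinates are not given because no build is named for the array. The deposited intensities were turned into log2(signal + 16). The lowest 25% by the mean of this log2 value were left out. Mutant and wild type were set against each other in limma 3.58.1 (R 4.3.3, eBayes with an intensity trend, group as the only term, Benjamini-Hochberg adjustment over 17059 probe sets, threshold 0.05). The moderated variances combine 4 residual with 10.4 prior degrees of freedom, so that the spread of 1 variable gene can be understated. Percentages and folds are on this log2 scale, on which changes of dim probe sets come out too small; means and SDs are linear. On simulated data with independent noise and known changes, the mean size of the estimated changes was checked. The simulation held no difference in RNA quality between the groups. Figures used matplotlib 3.10.9.

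The members, lists and tests were chosen with earlier results of these data known. All 10 members are named, and for each changed member the 3 most alike probe sets. Of the wider stretch, those past the threshold and the 2 with the smallest p on each side are named. Also named there, for context, are the ends of the range of untested changes and the *UGT85A* genes on either side of *UGT85A5*. A planned list of related genes by protein similarity and a planned search of promoters were not run, as no sequence table was used here. Nothing in the sources used here states that shared replicate numbers pair the arrays, and they were not taken as a pairing. Alternatives were pseudocounts of 1 and 64, other filters, median centring, quantile normalization, eBayes without the trend or robust, array weights, the replicate block, the RNA quality covariate and each array left out. The comparison of AT1G21770 with AT1G21790 was added after the data were seen.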

Additional observations from a re-analysis of the deposited data

Results flagged for a closer look

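The RNA quality index, taken from control probe sets that the comparison of genes did not use, had a mean of 1.17 ± 0.14 in the mutant, against 0.96 ± 0.07 in the wild type (SD, n = 3 each), with each mutant array above each wild type array (two-sided exact permutation p = 0.1, the smallest possible). A higher index is the direction of poorer RNA. AT1G21770 and AT1G21670 both lost their calls when the index was a covariate, and their changes there were −0.81 and 0.65. Because the groups did not overlap in the index, genotype and RNA quality cannot be told apart in that fit.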

How the results depend on the processing

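The number of flanking genes that passed, 2, was also 2 with other pseudocounts, filters and normalizations, robust eBayes, array weights, a threshold of 0.1 and adjustment over named probe sets. It was 0 without the intensity trend and 0 with the RNA quality covariate, and 1 to 2 when single arrays were left out. The count over all probe sets, 180, was 75 with no filter, 6 without the trend, 24 with the covariate, and 74 to 246 when single arrays were left out; the causes were not tested. Without mutant replicates 2 and 3 and wild type replicates 1 and 2 it was 89, 74, 81 and 109. The wider stretch had 0 calls in all 17 alternative fits. AT1G21830 turned sign in 262489_at with the covariate (−0.19) and over the fits without single arrays (−0.09 to 0.24), as did 262488_at (−0.22 to 0.06). The other tested members kept their sign but not their size: AT1G21730 ran from 0.01 to 0.66 and AT1G21790 from −0.50 to −0.21 over all alternatives. The unused comparison of AT1G21770 with AT1G21780, which was near background, gave −1.03, and −0.75 with a pseudocount of 1. Deviations of same-numbered arrays correlated at −0.03 to 0, and the replicate number was not taken as a pairing. Such values cannot show whether the samples were handled in pairs. Used as a replicate block, the replicate number gave 2 flanking genes and 211 probe sets in all. AT1G21780 was too dim to be tested.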
